A study of Drosophila melanogaster with 2 samples.

Results

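The erm NBs described here are cells sorted as neuroblasts of the Drosophila larval medulla that have erm transcripts and little hth or ey. The name stands for the rule below, since 13 of the 57 cells differed from the rest in other genes and 32 of the 57 had an ey UMI. They were chosen by transcript level, from 2 single-cell libraries: a kept cell was an erm NB when it had at least 40 CPM of erm (UMI counts of a gene scaled to a total of 1000000 per cell) together with hth and ey under 100 CPM, slp1 under 150, D under 400, tll under 100 and gcm under 500 CPM. Of 2659 kept cells 57 were erm NBs, 10 of 516 in experiment 1 (1.94%, exact binomial 95% interval 0.933 to 3.54) and 47 of 2143 in experiment 2 (2.19%, 1.62 to 2.91). Both experiments had the same condition and no treatment: brains of wandering larvae of the third instar, 120 larvae per experiment, grown at 25 °C, from which cells were sorted for both fluorescent markers of the genotype E(spl)mγGFP with SoxNGal4 and UAS-RedStinger over TM6B, where the GFP fusion marks NBs and the Gal4 line drives a red nuclear protein in the medulla. The reference was every other kept cell of the same experiment, a mixture of NBs of all other stages and of whatever else passed the sort and the filters. Each library is a pool of many larvae and both carry the same condition, so p-values do not measure the spread between animals. They came from fits over 2 libraries of unequal depth, and a low p-value did not require the same direction in both.

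Medulla NBs express a series of temporal transcription factors (TTFs) as they age, and the factor present at a division biases the fate of the progeny. Earmuff (Erm) is a zinc finger protein of the Fezf family. In type II lineages of the central brain it is known for keeping intermediate progenitors from reverting to NBs, and in the optic lobe it is one of the early factors of the medulla, together with the zinc finger protein Odd-paired (Opa), around the time when Homothorax is lost and the Pax6 protein Eyeless is gained.

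The rule used erm, so its values are a description. In single erm NBs the level lay between 82.6 and 560 CPM in experiment 1 with a median of 132 CPM, and between 41.0 and 491 CPM in experiment 2 with a median of 111 CPM. This rested on few molecules. The median number of erm unique molecular identifiers (UMIs, 1 for each transcript captured) was 3 in the cells of experiment 1 and 7 in those of experiment 2, and 6 of the 57 cells had a single erm UMI. The cells just inside the limit had 41.0, 41.8 and 44.1 CPM, and those just outside it, with all other limits met, had 34.0, 37.3 and 37.6 CPM. Summed over cells, erm was at 166 and 113 CPM in the erm NBs of experiments 1 and 2, against 12.5 and 14.97 CPM in all other kept cells.

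Most erm-expressing cells did not belong to the group. Of 235 kept cells with at least 40 CPM of erm, 94 were over the ey limit alone and 29 over the hth limit alone, and 114 had ey over its limit in any combination, 54 hth, 25 slp1, 14 D, 11 gcm and 6 tll. The ey limit cut through a continuous range: the 3 highest ey values inside it were 94.6, 96.1 and 99.6 CPM, and the 3 lowest of the erm-ey NBs, which met every other limit, were 101, 101 and 103 CPM. The erm NBs are thus bounded on the ey side by a threshold and not by a gap.

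The 2 experiments carry very different weight. The erm NBs of experiment 1 held 187367 UMIs in all, with 79267 of them (42.3%) in a single cell, so that 1 UMI was worth 5.34 CPM. Those of experiment 2 held 3246381 UMIs, and 1 UMI was worth 0.308 CPM. Median UMIs per cell were 11529 in erm NBs against 20634 in other cells of experiment 1, and 78158 in erm NBs against 40466 in other cells of experiment 2. The 2 files shared 9 barcodes, among them that of 1 erm NB, and 0 barcodes were kept in both experiments. Doublets were not called, and a setting without the deepest cells is given with the limits.

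The label was checked against fixed markers, and it held for most but not all members. The NB marker miranda (mira), an adaptor for basal cargo in dividing NBs, had no UMI in 4 of 10 erm NBs of experiment 1 (40.0%, 12.2 to 73.8) against 29 of 506 other cells (5.73%, 3.87 to 8.13), and in 4 of 47 erm NBs of experiment 2 (8.51%, 2.37 to 20.4) against 103 of 2096 other cells (4.91%, 4.03 to 5.93). The 7 neuroblast markers include dpn, which the filter itself requires. Of the other 6, edgeR's quasi-likelihood test called 0 between erm NBs and all other kept cells, with 2 at an unadjusted p under 0.05 and 0 by DESeq2. A filter described below kept only cells that had a mira UMI and under 5000 CPM of lncRNA:CR43283. With it E(spl)mgamma-HLH was called higher (0.64), although E(spl)mgamma-HLH was above the other cells in experiment 1 alone. mira was at -0.48, which is a description only, since the filter used mira to choose the cells. Haemocyte markers were at 0 UMIs in the erm NBs of both experiments (5 of 5 genes), and the glial identity gene repo had no UMI in experiment 1 and was found in 1 of 47 erm NBs in experiment 2. Glia markers as a whole summed to 507 and 848 CPM in erm NBs against 851 and 633 CPM in other cells, and under the same filter the glia marker Obp44a was called higher (1.37), at 80.7 and 392 CPM against 139 and 84.6 CPM.

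Looking at the members one by one, 13 of 57 stood apart from the rest in genes that the rule did not use. This split was made after the values had been seen and carries no test. In 5 cells (1 in experiment 1, 4 in experiment 2) the long non-coding RNA lncRNA:CR43283, known as cherub and described in type II NBs, lay between 45279 and 177585 CPM, whereas it did not exceed 413 CPM in the erm NBs outside that set. These cherub-high cells had mira (530 to 906 CPM) and opa (189 to 530 CPM), and in 0 of the 5 was a dmrt99B UMI seen, against 42 of the 44 main-body cells described below. In all, 21 kept cells reached 5000 CPM of lncRNA:CR43283. The temporal factor gene cas, known from embryonic NBs, was at 906 and 444 CPM in the cherub-high erm NBs of experiments 1 and 2, against 8.93 and 7.22 CPM in the main body of erm NBs. The spatial patterning gene Optix was at 401 CPM in the cherub-high cells of experiment 2 against 26.3 CPM in the main body there, and it had no UMI in the erm NBs of experiment 1.

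In 8 further cells (5 of 10 in experiment 1, 3 of 47 in experiment 2) hdc, which encodes Headcase, lay between 3774 and 10321 CPM, above the 1343 CPM that was the highest value among the other erm NBs. Of these hdc-high cells, 7 of 8 had no mira UMI. The neuronal RNA-binding protein gene elav was between 1135 and 6186 CPM in them. Summed over cells, the potassium channel gene Sh was at 1962 and 585 CPM in hdc-high cells of experiments 1 and 2 against 17.9 and 0.985 CPM in the main body, and Appl, the fly homologue of amyloid precursor protein, was at 817 and 435 CPM against 35.7 and 2.95 CPM. Both neuronal genes were therefore carried by hdc-high cells in each experiment. hdc-high cells made up 6.92% of the other kept cells in experiment 1 (4.86 to 9.49) and 1.43% in experiment 2 (0.968 to 2.04), so they were not limited to erm NBs. The remaining 44 cells, 4 in experiment 1 and 40 in experiment 2, are called the main body, and they had mira UMIs in all but 1 cell. The main body was not uniform. Its cells in experiment 1 had 9, 1, 1 and 1 erm UMIs, and D reached 336 CPM in 1 of them. In experiment 2 the main-body cell with most scro (1436 CPM) had 82.1 CPM of SoxN, and another had 705 CPM of scro and 44.1 CPM of SoxN. Where the 13 cells outside the main body move a result, the value is given a second time. It is then for kept cells with a mira UMI and with lncRNA:CR43283 under 5000 CPM, which left 5 and 39 erm NBs in experiments 1 and 2. Those of experiment 1 still include the hdc-high cell that had mira UMIs. This mira and cherub filter was added after the data had been seen, and its 5 cells of experiment 1 are under the 10 cells per library set as the size for a test, so its calls are given only beside those of all erm NBs.

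**Figure D1:**
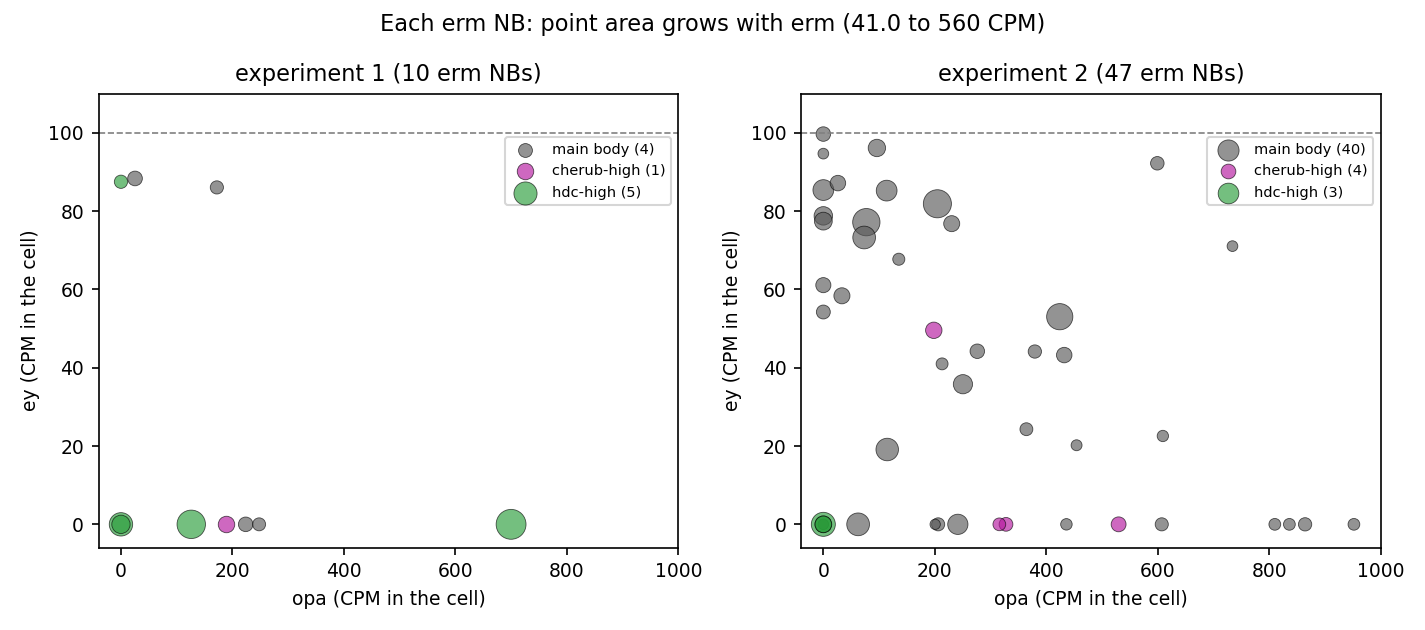
Each point is 1 erm NB with its opa (x axis) and ey (y axis) level in CPM, point area growing with erm, in experiment 1 (left) and experiment 2 (right); the dashed line is the ey limit of 100 CPM. In experiment 2 main-body cells with more opa tend to have less ey (rho -0.46 over 40 cells), and 5 of the 10 cells in experiment 1 are hdc-high.

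Within the main body of experiment 2, opa and ey were spread in opposite directions. Over the 40 cells Spearman's rho between opa and ey was -0.46, between opa and hth 0.54 and between erm and ey 0.42. The cells share 1 library, ey and hth were both bounded by the rule, and depth went with opa (rho 0.41) and with erm (-0.51), so these are descriptions. The 22 cells with at least 200 CPM of opa had a median of 23.4 CPM of ey and 21.2 CPM of hth, with no ey UMI in 9 of 22, and the 18 cells with less opa had a median of 75.2 CPM of ey and 0 CPM of hth, with no ey UMI in 3 of 18. Their erm medians were 84.6 and 156 CPM in the same order, and their median depths 97060 and 53484 UMIs, whose part in the difference was not tested.

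Other factors differed between these ends of the main body as well. Summed over cells of experiment 2, the snail-type zinc finger gene sna was at 161 CPM in opa-rich and 33.8 CPM in opa-poor cells, and rho, the intramembrane protease that releases EGFR ligands, at 119 and 45.0 CPM. The homeobox gene hbn had no UMI in the opa-rich cells and 30.0 CPM in the opa-poor ones, and scro, a later NK2-type TTF gene, was at 3.03 and 148 CPM. scro had no UMI in 12 of the 18 opa-poor cells and reached 1436 CPM in the highest. The glia marker Obp44a was at 22.2 CPM in opa-rich and 1074 CPM in opa-poor cells. In experiment 1 the main body was only 2 opa-rich and 2 opa-poor cells, and these genes were not in the same order there: sna was at 0 and 33.0 CPM, scro at 143 and 22.0 CPM and Obp44a at 285 and 44.0 CPM in opa-rich and opa-poor cells, each on 6 UMIs or fewer.

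The most similar cells in the rest of the transcriptome were then sought, with the genes of the rule, opa, dpn and the mitochondrial genes left out. Each cell was thinned to 5000 UMIs, and its 15 nearest cells of the same experiment were taken on 20 principal components. In experiment 2, 26.2% of the neighbours of erm NBs were erm-ey NBs, which are 3.73% of kept cells, 18.9% were ey NBs (7.98% of kept cells), 13.5% were other erm NBs (2.15%) and 4.26% were hth NBs (1.07%), where ey NBs have ey at or over its limit and hth NBs have hth at or over its limit with at least 100 CPM of mira, both with erm under 40 CPM and every other limit met. Cells over a limit of slp1, D, tll or gcm gave 20.1% of the neighbours against 63.2% of kept cells. In experiment 1 the 10 erm NBs had 5.33% erm NBs and 2.67% erm-ey NBs among their neighbours, against 1.75% and 2.72% of kept cells, and 54.0% were over a limit of a later factor against 61.4%. So the erm NBs of experiment 2 lay near cells of the adjoining stages, and those of experiment 1 were spread among the kept cells. The neighbours also had more UMIs before thinning than kept cells in experiment 2 (median 82090 against 40852), and the part of depth beyond the thinning was not tested.

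**Figure D2:**
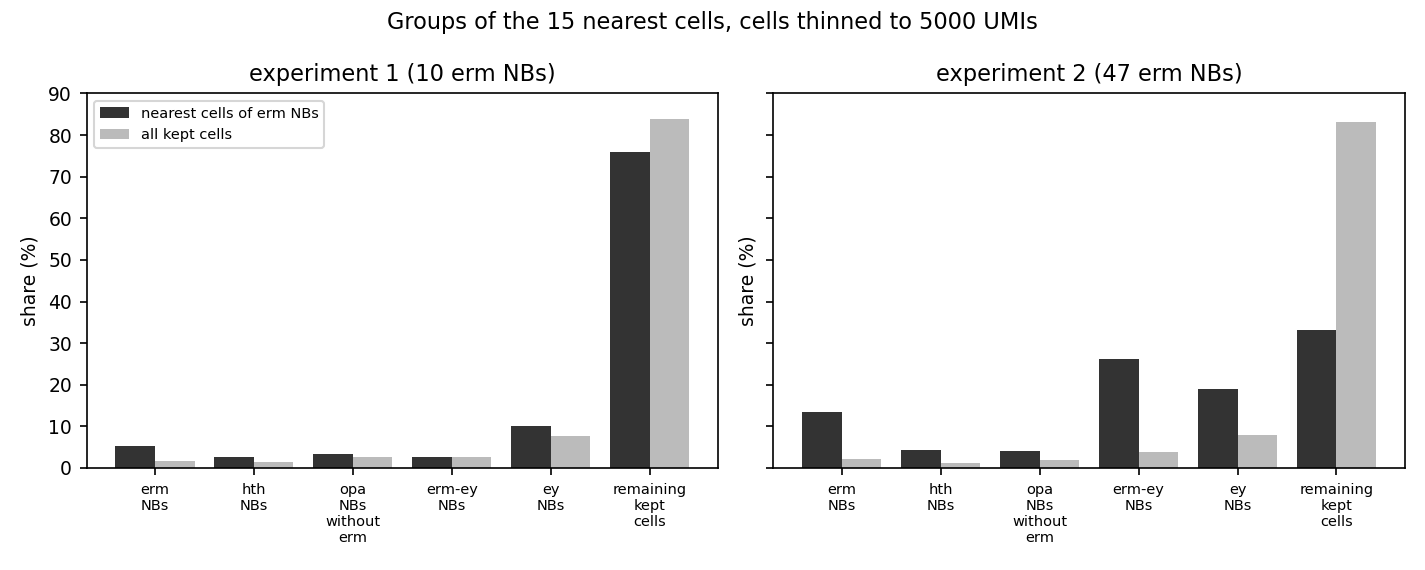
Share of the 15 nearest cells of erm NBs that fell in each group (dark bars), beside the share of that group among all kept cells (light bars), in percent, for experiment 1 (left, 10 erm NBs) and experiment 2 (right, 47 erm NBs). In experiment 2 the erm-ey NBs are 26.2% of neighbours and 3.73% of kept cells, and in experiment 1 the 2 sets of bars are close.

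Among the early TTF genes outside the rule, opa, SoxN and dmrt99B were higher in erm NBs than in all other kept cells and hbn was lower. Opa is a Zic-family zinc finger protein, and the study places erm transcripts between an earlier and a later opa window. Summed over cells, opa was at 107 and 331 CPM in the erm NBs of experiments 1 and 2, against 102 and 121 CPM in all other kept cells. It was higher in experiment 2 and nearly equal in experiment 1, and the log2 ratios were 0.10 and 1.45. The fit gave a log2 fold change of 1.00 ± 0.21 (SE), called by edgeR's quasi-likelihood test with an adjusted p of 0.00019, and DESeq2 gave 0.94 with an adjusted p of 0.231. After thinning to 5000 UMIs, 30.0% of erm NBs in experiment 1 had an opa UMI (6.67 to 65.2) against 23.7% of other cells (20.1 to 27.7), and 55.3% in experiment 2 (40.1 to 69.8) against 16.8% (15.2 to 18.5). In cells with at least 500 CPM of gcm, the last stage, these shares were 10.2% (median depth 14668 UMIs) and 1.15% (16537 UMIs), and the difference for opa therefore rested on experiment 2. In single erm NBs opa ranged from 0 to 700 CPM in experiment 1 and from 0 to 952 CPM in experiment 2, with no opa UMI in 3 of 10 and 12 of 47 cells. Many erm NBs thus had no opa transcript detected at their depth.

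SoxN encodes a SoxB protein that starts in the neuroepithelium, and its Gal4 line also drove the sort marker. It was at 726 and 720 CPM in erm NBs against 413 and 337 CPM in all other kept cells, and it was higher in erm NBs in both experiments (log2 fold change 0.99 ± 0.19, edgeR adjusted p = 1.87e-05). dmrt99B encodes a DMRT-family protein. It was at 64.0 and 133 CPM in erm NBs against 39.6 and 54.2 CPM in other cells (1.17 ± 0.22, edgeR adjusted p = 1.87e-05). After thinning a dmrt99B UMI was found in 40.0% of erm NBs in experiment 1 (12.2 to 73.8) and 40.4% in experiment 2 (26.4 to 55.7), against 12.3% and 13.0% of other cells, and in 0 of 49 and 2 of 348 cells with at least 500 CPM of gcm. Both genes kept their direction and their call under the mira and cherub filter.

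hbn encodes a homeodomain protein of the Ey stage. It was at 64.0 and 18.2 CPM in erm NBs against 61.4 and 62.3 CPM in all other kept cells. Summed over all erm NBs, only experiment 2 showed the difference (log2 fold change -1.16 ± 0.30, edgeR adjusted p = 0.00512). In experiment 1 the cherub-high cell held 10 hbn UMIs and the main body 2. The main body was at 17.9 and 10.5 CPM in experiments 1 and 2. Under the mira and cherub filter hbn was at -2.49, and with cells thinned to 5000 UMIs it was at 0.51 and not called. Oaz, a multi-zinc-finger gene of the early stages, had 171 and 117 CPM in erm NBs against 98.0 and 93.7 CPM and was not called.

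All 4 testable later TTF genes were lower in erm NBs, a direction that the limits on slp1, D and tll favour by leaving out the later stages. slp2, the paralogue of slp1, was at 37.4 and 27.4 CPM in erm NBs against 323 and 376 CPM (log2 fold change -3.59 ± 0.25, edgeR adjusted p = 9.6e-43). B-H1, which encodes a BarH homeodomain protein, had 1 UMI in erm NBs of experiment 1 and 5 in experiment 2 (1.54 CPM against 41.0 CPM in other cells), and B-H2 had 2 and 1. scro was at 566 and 72.4 CPM in erm NBs against 538 and 550 CPM, so that experiment 1 showed no difference. There, hdc-high cells carried scro at 2064 CPM and the main body at 44.7 CPM.

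**Figure D3:**
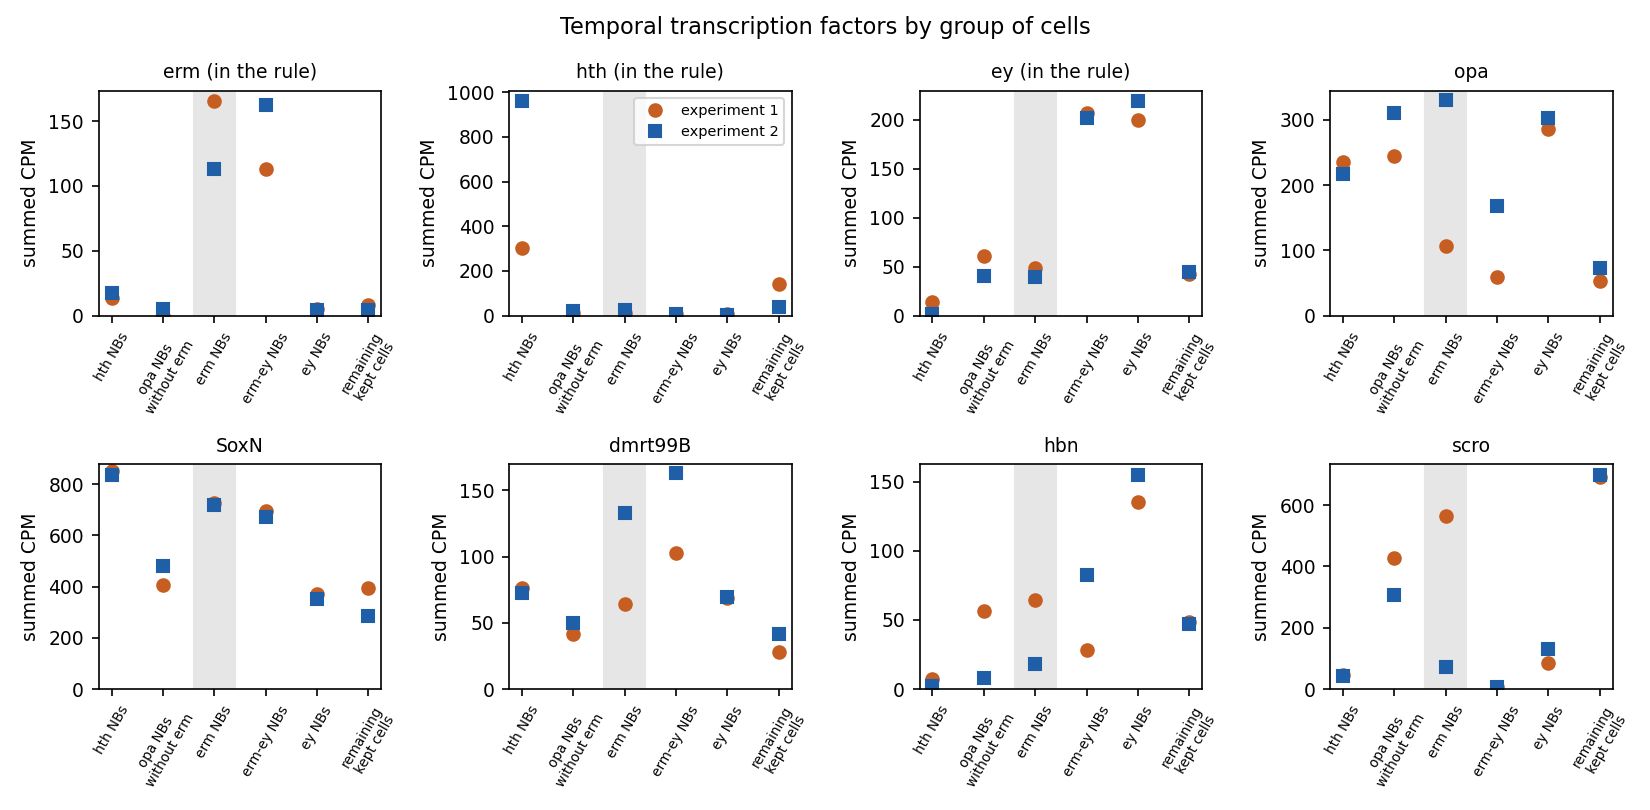
Summed level in CPM (y axis) of 8 TTF genes in 6 groups of cells (x axis). Circles are experiment 1 and squares experiment 2, with the erm NBs shaded. The places of the opa NBs without erm and of the remaining kept cells are not an order of age. The genes erm, hth and ey were used to choose the groups, and opa to choose the opa NBs. SoxN is near 700 CPM in erm NBs and erm-ey NBs in both experiments, hbn is highest in ey NBs, and opa and scro differ between the experiments in erm NBs.

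The neighbouring groups place these levels on the age axis. SoxN was at 850 and 835 CPM in the hth NBs, 726 and 720 CPM in erm NBs, 694 and 671 CPM in erm-ey NBs and 370 and 351 CPM in ey NBs of experiments 1 and 2. dmrt99B was at 76.0 and 72.9 CPM in hth NBs, 64.0 and 133 CPM in erm NBs, 103 and 163 CPM in erm-ey NBs and 69.0 and 69.1 CPM in ey NBs. hbn was at 6.91 and 2.00 CPM in hth NBs, 64.0 and 18.2 in erm NBs, 28.5 and 82.7 in erm-ey NBs and 135 and 155 CPM in ey NBs. In both experiments SoxN was lower at each later one of these groups, and among them hbn was highest in ey NBs. In the main body of erm NBs alone SoxN was at 625 and 724 CPM and hbn at 17.9 and 10.5 CPM. The order of SoxN thus did not hold for the main body of experiment 1, which was below the erm-ey NBs. The opa NBs without erm, whose age the rule does not fix, are left out of this order. After thinning, a SoxN UMI was found in 63.4% of them in experiment 2, against 91.3% of hth NBs and 91.5% of erm NBs. In experiment 1 it was found in 71.4% of them, against 85.7% of hth NBs and a higher share of erm NBs. opa did not peak in erm NBs in both experiments: it was at 235 and 217 CPM in hth NBs, 107 and 331 in erm NBs, 59.6 and 168 in erm-ey NBs and 286 and 304 CPM in ey NBs. The hth NBs were only 7 and 23 cells, under the size set for a test, so calls against them are not given.

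Against all other kept cells, edgeR called 132 genes higher and 60 lower in erm NBs among 7153 tested, which is 1.85% and 0.839% of them. The genes of the rule, dpn and the mitochondrial genes were left out of these counts. Of the 132 genes 119 were higher in each experiment, and of the 60 genes 57 were lower in each. The mira and cherub filter gave 136 higher and 97 lower of 6919 (1.97% and 1.4%), among them 77 of the 132 and 53 of the 60, and DESeq2 called 45 and 26 of them. Without the experiment as a block edgeR called 0 in either direction, with 173 and 109 at an unadjusted p under 0.05.

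Among the genes that were higher, bnb, rho and REPTOR had the largest log2 fold changes after lncRNA:CR43283. The level of lncRNA:CR43283 came from the cherub-high cells (4.80 in all erm NBs, and -0.60 under the filter, which removed those cells). bnb was at 69.4 and 50.2 CPM in erm NBs against 13.5 and 9.54 CPM (log2 fold change 2.42 ± 0.35, edgeR adjusted p = 7.86e-10). rho was at 128 and 89.3 CPM against 24.4 and 25.0 CPM (2.07 ± 0.26, edgeR adjusted p = 3.31e-13). REPTOR, a transcription factor held in check by TORC1, was at 69.4 and 61.3 CPM against 23.9 and 18.7 CPM (1.68 ± 0.32). For rho 19 of the 24 UMIs of experiment 1 lay in hdc-high cells, with 44.7 CPM in the main body there and 93.2 CPM in that of experiment 2, and REPTOR was at 16.1 CPM in experiment 1 under the mira and cherub filter, against 22.1 CPM in other cells. The metabolic enzyme genes Gdh, for glutamate dehydrogenase, and Idh, for isocitrate dehydrogenase, had 64.0 and 159 CPM and 192 and 343 CPM in erm NBs, against 38.6 and 56.5 CPM and 114 and 120 CPM in other cells. CrebA, a bZIP factor of secretory genes, CenG1A, an Arf GTPase-activating protein gene, the predicted genes CG43658, CG42342 and CG9650, and lncRNA:CR33938 had log2 fold changes from 1.23 to 1.67, and every one of them was called under the filter too.

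Among the genes that were lower, dap, which encodes the p27-type inhibitor of Cyclin E/Cdk2, followed slp2 and CG32850. dap was at 21.3 and 35.7 CPM in erm NBs against 149 and 155 CPM in all other kept cells (log2 fold change -2.19 ± 0.23, edgeR adjusted p = 3.23e-18). The gcm limit favours this direction for dap, as given below. The cell fate gene pros was at 390 and 386 CPM against 1460.4 and 615 CPM (-1.20 ± 0.19), and the histone variant gene His3.3B at 3640 and 3452 CPM against 8753 and 10332 CPM (-1.40 ± 0.18). mld and apt, which encode nuclear proteins, the small GTPase gene Rab14, the guidance gene Sema1a, insb, a nuclear repressor gene of Notch signalling, the chromatin gene corto and the matrix gene SPARC had log2 fold changes between -1.67 and -1.14. All of these were called with the same sign under the mira and cherub filter.

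**Figure D4:**
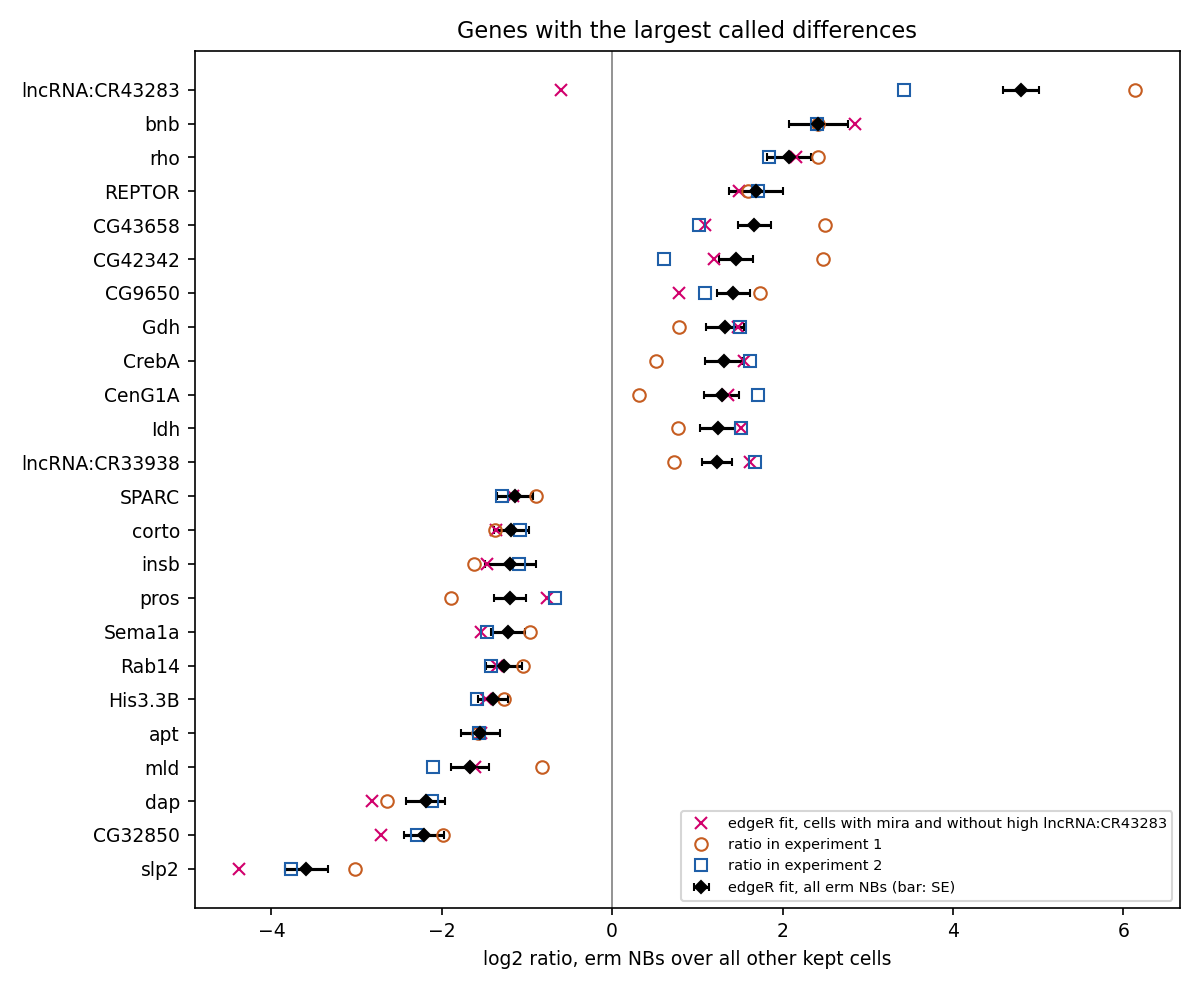
log2 ratio of erm NBs over all other kept cells (x axis) for the 12 genes with the largest called difference in each direction: diamonds with SE bars are the edgeR fit, crosses the fit under the mira and cherub filter, open circles and squares the ratio within experiments 1 and 2. lncRNA:CR43283 alone crosses 0 under the filter, which removed the cells richest in it, and the other 23 genes stay on their side.

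Genes of differentiating progeny were mostly low against all other kept cells, a direction that the gcm limit favours for dap and nerfin-1. After thinning, a dap UMI was found in 95.9% and 96.0% of cells with at least 500 CPM of gcm. For nerfin-1 it was 98.0% and 94.3%. Over all other kept cells the shares were 24.7% and 28.5% for dap and 22.1% and 19.5% for nerfin-1. Of 5 tested markers of ganglion mother cells or new neurons, dap, nerfin-1 and pros were called lower and Hey, a Notch target of new neurons, higher. nerfin-1 encodes a zinc finger protein of young neurons. It was at 112 and 33.6 CPM in erm NBs against 109 and 88.0 CPM (-0.87 ± 0.22, edgeR adjusted p = 0.0055), with 8.93 and 11.5 CPM in the main body. Hey was at 117 and 17.6 CPM in erm NBs against 5.62 and 5.50 CPM (2.91 ± 0.49, edgeR adjusted p = 5.2e-07). hdc-high cells held Hey at 429 and 318 CPM and the main body at 8.93 and 12.5 CPM, and Hey was called under the mira and cherub filter too (3.16). Of 8 neuron markers, brp, Sh and Appl were called higher and elav lower, and under the mira and cherub filter 0 were higher while elav remained lower. Their summed level was 2460 and 620 CPM in erm NBs against 1706 and 1132 CPM in other cells, and no neuron marker was at 0 in either experiment.

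CycE and stg, which drive the cell cycle, were lower in erm NBs, and most other cell cycle genes did not pass the test. Of 16 genes of NB identity and division, pros, CycE and stg were lower and 0 higher, with a median log2 fold change of -0.53 beside -0.01 over all genes tested. stg, the Cdc25 phosphatase that opens mitosis, was at 448 and 473 CPM in erm NBs against 742 and 777 CPM (-0.69 ± 0.19, edgeR adjusted p = 0.0126). CycE, for Cyclin E of S phase entry, was at 993 and 464 CPM against 1204 and 985 CPM (-0.68 ± 0.18, edgeR adjusted p = 0.0122). Both were called lower against ey NBs as well (-0.53 and -0.78), though not under the mira and cherub filter. Of 35 tested G2/M genes 2 were lower and of 28 S phase genes 1, with medians of -0.30 and -0.16. Under the mira and cherub filter the S phase median was -0.04, and 6 of the 16 genes of NB identity and division were lower and 1 higher. mira, which that filter used, is counted among the 6. hdc-high cells were low in CycE (61.3 and 66.9 CPM) and stg (81.7 and 117 CPM), while in the main body of experiment 1 CycE was at 1519 CPM and in that of experiment 2 at 473 CPM.

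Of 20 tested genes of the Notch pathway, through which medulla NBs keep their identity, 3 were called higher and 3 lower (median -0.13, also with Tom at its bound). The bHLH repressor genes E(spl)m7-HLH and E(spl)m8-HLH were called higher, yet they were above the other cells only in experiment 1, at 528 against 69.7 CPM and 854 against 158 CPM. In experiment 2 they were below them, at 48.7 against 73.9 CPM and 101 against 187 CPM. The single cell with 42.3% of the UMIs of experiment 1 also had 3646 CPM of E(spl)mgamma-HLH, whose reads cannot be told apart from those of the GFP fusion if its transcript is counted. Bearded-type genes, small inhibitors of Neuralized, were called lower for E(spl)m4-BFM, Tom and Ocho, mainly on the depth of experiment 2. E(spl)m4-BFM had 2 UMIs in erm NBs of each experiment, which in experiment 2 was 0.616 CPM against 38.1 CPM in other cells (61.9 times lower, counting interval 17.1 to 511), and Ocho and Tom had no UMI in experiment 2, at least 21.5-fold and 9.07-fold lower against the floor of 3 UMIs per library. In experiment 1 the erm NBs were too shallow to show such a difference for Tom. Brd, E(spl)malpha-BFM and E(spl)m2-BFM were not called. E(spl)m6-BFM was called higher, at 74.7 and 23.7 CPM against 2.72 and 1.98 CPM, and was not called under the mira and cherub filter. All its 14 and 77 UMIs in erm NBs lay in hdc-high cells, and the main body had none.

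EGFR signalling drives the neuroepithelium to NB transition. Of 11 tested genes of EGFR and JAK-STAT signalling, rho, vn and sty were higher and 0 lower (median -0.02). vn, a neuregulin-like EGFR ligand gene, was at 16.0 and 27.4 CPM in erm NBs against 7.79 and 7.76 CPM, on 3 UMIs in experiment 1. sty, for the feedback inhibitor Sprouty, was at 229 and 132 CPM against 117 and 78.7 CPM (0.87 ± 0.20, edgeR adjusted p = 0.00076). All 3 were called under the mira and cherub filter. Of 7 neuroepithelium markers, rho and shg, which encodes E-cadherin, were higher, and l(1)sc, the proneural gene of the transition zone, had no UMI in erm NBs of either experiment.

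Genes of glycolysis were the list with the largest share called higher, 6 of 11 tested and 0 lower, with a median log2 fold change of 0.64. Gapdh1 was at 80.1 and 146 CPM in erm NBs against 61.2 and 57.6 CPM (1.09 ± 0.21, edgeR adjusted p = 3.09e-05) and Tpi, for triose phosphate isomerase, at 64.0 and 122 CPM against 40.2 and 51.0 CPM (1.13 ± 0.23). Eno, for enolase, was at 496 and 892 CPM against 404 and 484 CPM (0.64 ± 0.19, edgeR adjusted p = 0.0311). The excess over other cells was larger in experiment 2 for these 3 genes. Under the mira and cherub filter 8 of 11 were higher, and DESeq2 called 0 of 11, with 9 of 11 at an unadjusted p under 0.05 in edgeR. Against opa NBs without erm and against erm-ey NBs edgeR called 0 of 12, with and without the filter.

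Of 17 adhesion and guidance genes 8 were called higher and 1, fra, lower (median 0.85). The call split by cells: CadN, which encodes N-cadherin, was carried by hdc-high cells (1022 and 752 CPM, main body 0 and 2.95 CPM). Ten-m, for a teneurin, was at 143 and 535 CPM in hdc-high cells and 8.93 and 18.1 CPM in the main body, though the main body held 55 of its UMIs in experiment 2 and hdc-high cells 32. By contrast, drl, for a Ryk receptor, Ten-a, shg and trn were called under the mira and cherub filter as well. drl was at 181 and 213 CPM in erm NBs against 126 and 106 CPM (0.85 ± 0.20, edgeR adjusted p = 0.00159). trn, for a leucine-rich repeat protein, was higher in experiment 2 alone.

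Of 10 tested temporal factor genes of other lineages, cas and br were higher, and cas was at -1.23 and not called under the mira and cherub filter, which also called mamo lower (-0.80). br, an ecdysone-responsive BTB gene, was at 1606 and 645 CPM against 790 and 558 CPM (0.63 ± 0.18, edgeR adjusted p = 0.023). Syp, for the RNA-binding protein Syncrip of late NB stages elsewhere, had 6613 and 7034 CPM against 5631 and 4449 CPM and was called only under the mira and cherub filter (0.67). Of 12 partners and targets of Erm known from type II lineages edgeR called 0 (3 at an unadjusted p under 0.05, 0 by DESeq2). Of 11 stress genes 1 was higher, and under the filter 4 heat shock genes (Hsp23, Hsp26, Hsp83 and DnaJ-1) were lower. Of 85 ribosomal protein genes 1 was called, RpS19b, with a list median of 0.09.

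**Figure D5:**
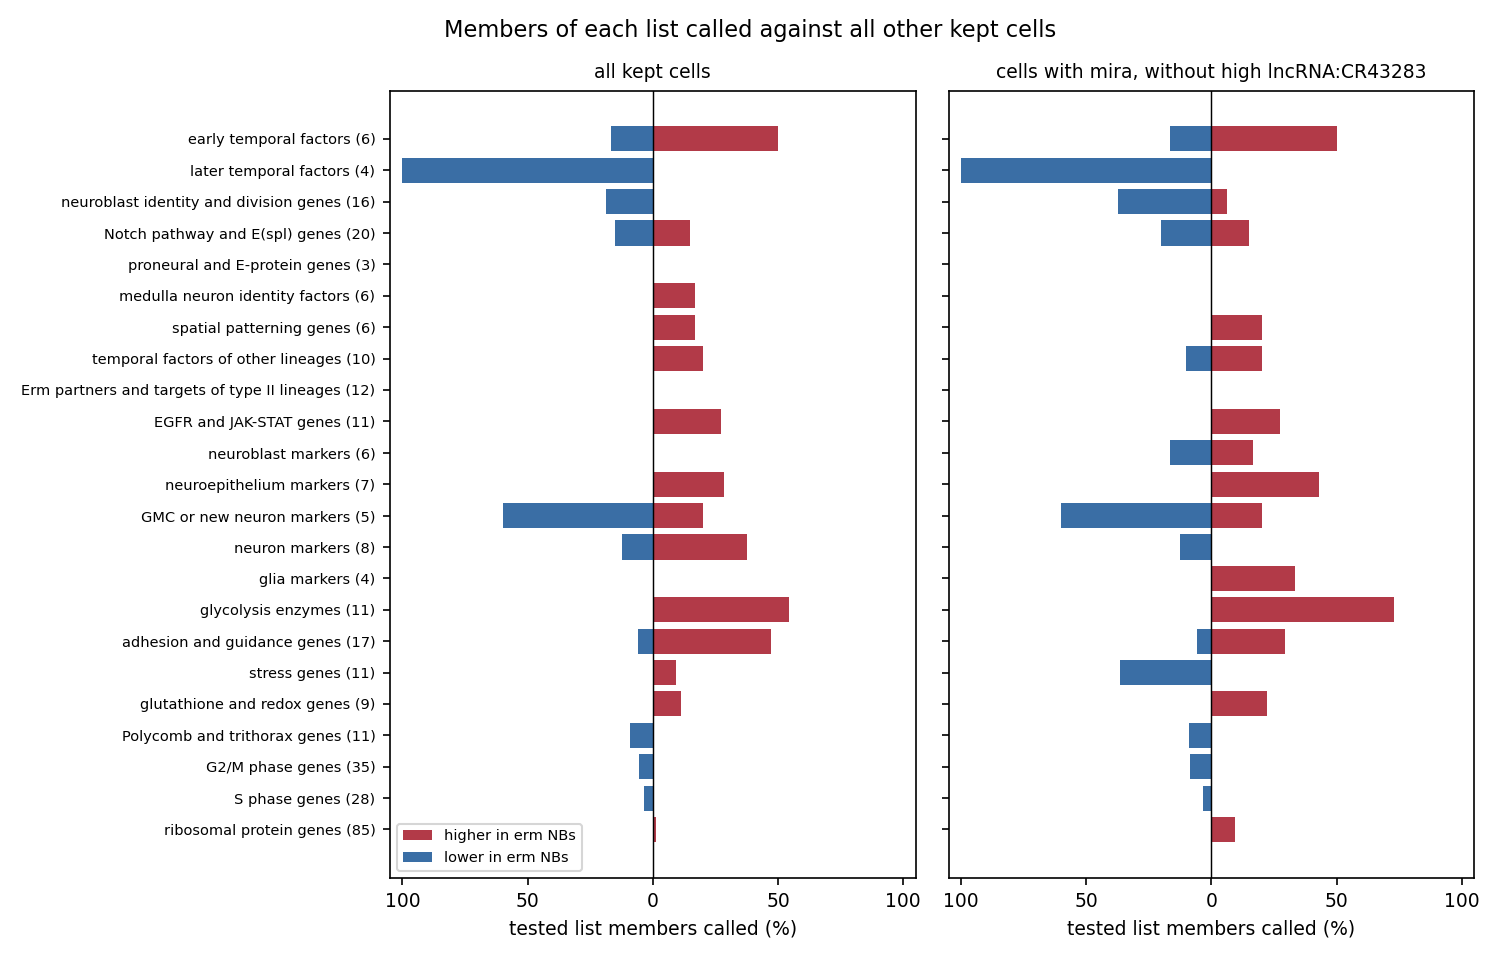
Share of the tested members of each gene list (percent, x axis) called higher (right of 0) or lower (left of 0) in erm NBs than in all other kept cells, for lists with at least 3 tested genes, over all kept cells (left) and under the mira and cherub filter (right); numbers in parentheses are the genes tested in the left panel. Glycolysis enzymes have the largest share higher, at 6 of 11 and 8 of 11, and the neuron markers lose their higher calls under the filter. The right panel counts mira, which the filter used, in its lists.

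Between erm NBs and opa NBs without erm, which had at least 100 CPM of opa, erm under 40 CPM and all limits met, edgeR called 25 genes higher and 5 lower of 6711 (0.373% and 0.0745%). The opa NBs were 14 and 41 cells. Their age is not fixed by the rule, since the study describes opa in NBs both before and after the erm window. After thinning, a slp2 UMI was found in 85.7% and 34.1% of opa NBs, against 20.0% and 10.6% of erm NBs. sna was at 69.4 and 109 CPM in erm NBs against 36.9 and 31.9 CPM in opa NBs (log2 fold change 1.53 ± 0.29, edgeR adjusted p = 0.0325), and dmrt99B at 64.0 and 133 CPM against 41.8 and 49.9 CPM (1.28 ± 0.22, edgeR adjusted p = 0.0165). Both were called under the mira and cherub filter. In experiment 1, however, hdc-high cells held 8 sna UMIs and the main body 3, at 26.8 CPM, which is below the opa NBs. l(3)neo38, a zinc finger gene, and lncRNA:CR46006 were higher too (1.03 and 0.82) and were not called under the filter. slp2, at 37.4 and 27.4 CPM against 165 and 102 CPM, mld and His3.3B were lower. Genes of progeny and neurons were higher in erm NBs than in opa NBs, the reverse of their order against all kept cells for dap and nerfin-1: dap was at 21.3 and 35.7 CPM in erm NBs against 1.61 and 2.83 CPM in opa NBs, and nerfin-1 at 112 and 33.6 CPM against 6.42 and 3.54 CPM. Hey, Sh, Appl, CadN, Lac and Ten-m were called higher with them. Under the mira and cherub filter edgeR called none of these 8 genes. With the mitochondrial limit raised to 20%, which gave 70 erm NBs in experiment 1, edgeR called 0 genes between erm NBs and opa NBs, with 253 higher and 151 lower at an unadjusted p under 0.05.

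Against erm-ey NBs, the cells most frequent among their neighbours in experiment 2, a contrast added after the data had been seen called 54 genes higher and 0 lower in erm NBs of 6712 (0.805% and 0.0%), with 359 higher and 137 lower at an unadjusted p under 0.05 in edgeR and no DESeq2 run. Of 8 neuron markers 6 were higher, and of 5 markers of ganglion mother cells or new neurons dap, nerfin-1 and Hey. nerfin-1 was at 112 and 33.6 CPM in erm NBs against 0 and 0.910 CPM in erm-ey NBs (5.63 ± 0.50, edgeR adjusted p = 8.22e-05), and dap at 21.3 and 35.7 CPM against 2.48 and 0.758 CPM (5.12 ± 0.50, edgeR adjusted p = 0.000178). scro was at 566 and 72.4 CPM against 6.20 and 8.04 CPM (4.38 ± 0.74, edgeR adjusted p = 0.0115). Under the mira and cherub filter 14 genes were higher and 1 lower of 6577 (0.213% and 0.0152%), with dap, nerfin-1, Hey and scro among the 14 and 0 of 8 neuron markers. These calls rested on few cells. The hdc-high cell kept in experiment 1 had 2156 CPM of scro, and a single main-body cell of experiment 2 had 1436 CPM. In the main body of experiment 2 opa-poor cells held 35 nerfin-1, 38 Hey and 49 dap UMIs, and opa-rich cells 0, 0 and 3.

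Between erm NBs and ey NBs, the stage that follows, 128 genes were higher and 19 lower of 6712 (1.91% and 0.283%). SoxN was at 726 and 720 CPM in erm NBs against 370 and 351 CPM in ey NBs (0.99 ± 0.14, edgeR adjusted p = 0.0023). shg was at 112 and 139 CPM against 69.7 and 42.4 CPM (1.43 ± 0.26, edgeR adjusted p = 0.01), and fj and ft, which act in planar polarity, were called with it. hbn was at 64.0 and 18.2 CPM against 135 and 155 CPM (-2.74 ± 0.56, edgeR adjusted p = 0.0186), and CG43693 at 5.34 and 3.70 CPM against 61.1 and 52.2 CPM (-3.93 ± 0.44). slp2, mld, His3.3B and the chaperone partner gene Sgt1 were lower as well. chrb, a TOR inhibitor gene, Msp300, a nuclear anchoring gene, CG43658, REPTOR and hdc were higher (1.08 to 2.17), and of these chrb and REPTOR were not called under the mira and cherub filter. opa did not pass the test between erm NBs and ey NBs (-0.29 ± 0.27). Of 5 markers of ganglion mother cells or new neurons dap, nerfin-1 and Hey were called higher than in ey NBs, and of 8 neuron markers 5 were. Under the mira and cherub filter Hey alone of the first list and brp alone of the second were called. That filter kept 1 hdc-high cell in experiment 1. The main body had 1 and 38 UMIs of Hey and 0 and 5 UMIs of brp in experiments 1 and 2. Of 12 glycolysis enzymes edgeR called 0 in this comparison (5 at an unadjusted p under 0.05, 0 by DESeq2), and under the filter 4, Pfk, Ald, Tpi and Gapdh1, were higher. With the mitochondrial limit at 20% the calls between erm NBs and ey NBs fell to 11.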

How the data were processed

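Live singlets positive for GFP and RedStinger were sorted by the authors, who deposited unnormalised UMI counts for every barcode, and the submitters' notes name BDGP6 and the Cell Ranger versions 3.0.1 and 3.1.0. The files hold 17753 genes, with 42618478 UMIs in 6548 barcodes and 116712060 UMIs in 5343 barcodes. Kept cells had at least 1 dpn UMI, under 10% of UMIs on mt: genes and at least 5000 UMIs, after the 5 deepest cells were removed. The median depth was 19864 and 40852 UMIs. Members and gene lists were chosen with earlier results of these data known.

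UMI counts were summed per experiment and group and tested with edgeR 4.0.16 (TMM, filterByExpr, quasi-likelihood, experiment as block, Benjamini-Hochberg over all genes, called at 0.05): 4 sums for erm NBs against all others, with 1 residual degree of freedom, and 12 sums of 6 groups for neighbours. The tests were run on simulated data first. DESeq2 1.42.0 was an alternative. CPM is UMIs scaled to 1000000 in a cell or sum, log2 ratios per experiment add 0.5 UMIs, and intervals are exact Clopper-Pearson or Poisson intervals of counting error only. Named genes outside the lists are, of called genes with 1 sign in both experiments and at least 50 CPM in the higher group, the 12 (neighbours: 6) largest in each direction. Cell cycle lists came from the study, and ribosomal genes were taken by symbol. Coordinates and sequences are not given.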

Additional observations from a re-analysis of the deposited data

Results flagged for a closer look

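Signal for erm also appeared in cells that the comparisons do not use. Among cells without a dpn UMI, with at least 5000 UMIs and under 10% mitochondrial UMIs, erm was at 32.3 CPM in experiment 1 and 44.5 CPM in experiment 2, above the 1.59 and 0.340 CPM that 3 UMIs would give there. Of these cells 26 of 148 (17.6%, exact 95% interval 11.8 to 24.7) and 120 of 519 (23.1%, 19.6 to 27.0) had at least 40 CPM of erm. Their median depths were 8613 and 10945 UMIs, and what these cells are was not tested.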

How the results depend on the processing

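The fit used the experiment as a replicate block. With no replicate block edgeR called 0 genes higher and 0 lower than all others (173 and 109 at an unadjusted p under 0.05), 0 against opa NBs (257 in both directions) and 1 against ey NBs, and opa was at 1.10 (adjusted p = 1.00). Counts higher than all others were 51 with DESeq2, 62 with cells thinned to 5000 UMIs and 203 without cells above the 95th percentile of UMIs, and counts lower were 26, 16 and, under the mira and cherub filter, 97. Calls against opa NBs were 234 without a filter on low counts, 61 with DESeq2, 19 with at least 2 erm UMIs, 0 with an mt: limit of 20%, 87 without the deepest cells, 13 with a mira UMI and 18 under the mira and cherub filter. Calls against ey NBs were 435 without a filter, 11 with an mt: limit of 20% and 58 with thinned cells. opa was at 0.94 with DESeq2 and 0.83 with an mt: limit of 20% (adjusted p = 0.06), and between 0.10 and 1.45 without replicate 2 and without replicate 1. At 80 CPM of erm the share of erm NBs was 1.62%. The cause of these shifts was not tested.

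Single genes turned round as follows: without lncRNA:CR43283-rich cells lncRNA:CR43283 was at -0.71 (-0.60 with a mira UMI as well) and cas at -1.07 (-1.23); with thinned cells hbn was at 0.51 and E(spl)m8-HLH at -0.11; with a mira UMI Sh was at -1.55 and CadN at -0.26, and under both filters Sh, CadN and Lac were at -1.41, -0.061 and -0.47. With either experiment left out in turn, hbn lay between -1.76 and 0.12, scro between -2.92 and 0.080, nerfin-1 between -1.38 and 0.079, Optix between -0.73 and 2.26, trn between -0.20 and 1.38, E(spl)m7-HLH between -0.60 and 2.93 and E(spl)m8-HLH between -0.88 and 2.44. An mt: limit of 20% raised the kept cells of experiment 1 to 2269 and its erm NBs to 70. The 7 and 23 hth NBs were under the size set for a test, so calls against them are not given and no alternative was run.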
